A study of Mus musculus with 15 samples.

Results

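The maturation of XCR1+ dendritic cells (DCs) was compared between mouse thymus and spleen, gene by gene. The quantity reported is the thymus change (CCR7+ minus CCR7-) minus the spleen change (CCR7+ minus CCR7-), in log2 units, and is called the difference below. A positive difference means that the step from CCR7- to CCR7+ was more upward, or less downward, in thymus. Genes were chosen by their level: a group mean above 6 (log2) in at least 1 fraction of each tissue, which kept 8637 of the 13629 genes tested and of the 18194 genes with a probe set. Of the 4992 tested genes left out, 4307 missed that level in both tissues, 270 in thymus alone and 415 in spleen alone. Just inside the threshold, the deciding group means of Tent5a and Mbd3 were 6.0004 and 6.0009, and just outside it those of Fam229a and Crybb1 were 5.9999 and 5.9994.

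Each group held 3 arrays of sorted cells from untreated mice: thymus CCR7-, thymus CCR7+, spleen CCR7- and spleen CCR7+. The gates in the labels were CD11c+, CD317- and CD172a- throughout, with CD117+ CCR7- cells taken as immature and CD117- CCR7+ cells as mature. XCR1 stands in the names of the samples but not among those gates. The names of all spleen samples also carry the mark LT_SetA, of unstated meaning, and those of the thymus samples do not. Whatever it stands for cannot be told apart from tissue here. A further group of 3 arrays held spleen CCR7+ cells of mice injected with 10 µg polyI:C, a synthetic double-stranded RNA, 18 h before harvest. It took no part in the contrast but entered the choice of probe sets, the filter on dim genes and the estimate of the spread, and its levels are given beside those of the untreated groups. Strain, age and the number of mice behind an array are in none of the sources used here, so p-values measure the spread between these arrays, which may be partly technical.

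XCR1+ DCs are the lineage that takes up dying cells and presents their antigens to CD8+ T cells. In the steady state some of them mature without infection: they gain CCR7, the receptor that guides them towards T cell areas, and lose much of the equipment for uptake. In the thymus such cells carry antigens of the medulla to developing T cells, where presentation removes self-reactive cells or diverts them into the regulatory lineage. In the spleen they meet mature T cells, and double-stranded RNA drives a maturation that is accompanied by interferon and costimulation.

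The markers of the lineage were present. Of 8 markers checked, Clec9a had no usable probe set, and the other 7 (Xcr1, Batf3, Irf8, Cadm1, Itgae, Flt3 and Zbtb46) averaged between 9.23 and 13.24 in thymus CCR7- cells and between 9.56 and 13.32 in spleen CCR7- cells. Xcr1, the chemokine receptor that names the cells, averaged 5.25 in thymus CCR7+ and 8.03 in spleen CCR7+ cells. Ccr7 rose by 4.19 in thymus and 4.53 in spleen, and Kit, which encodes CD117, fell in both (changes -2.52 and -2.63), as the gates require. The differences of Ccr7 (-0.34, SE 0.49) and Kit (0.11, SE 0.48) did not pass the test. The 3 spleen CCR7+ arrays scattered most, with residual SDs of 0.307 to 0.369 against 0.174 to 0.242 in the other untreated arrays.

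The 250 bases before the start sites of 4 genes, picked as examples of patterns described below, are shown. Igfbp4 rose with maturation in thymus, and F11r was already high in immature thymic cells. Cd244a and Cd207 fell further in thymus, Cd207 from a higher start there. The sequences are RefSeq's (GRCm38.p6), written 5′ to 3′ on the strand of the gene, and capitals mark the motif TGANTCA, where N is any base. This motif includes the AP-1 sites TGAGTCA and TGACTCA but is wider than them. Igfbp4 lies at chr11:99040994-99041243 on the plus strand, Cd244a at chr1:171558943-171559192 (plus), F11r at chr1:171437311-171437560 (plus) and Cd207 at chr6:83677858-83678107 (minus).
Igfbp4: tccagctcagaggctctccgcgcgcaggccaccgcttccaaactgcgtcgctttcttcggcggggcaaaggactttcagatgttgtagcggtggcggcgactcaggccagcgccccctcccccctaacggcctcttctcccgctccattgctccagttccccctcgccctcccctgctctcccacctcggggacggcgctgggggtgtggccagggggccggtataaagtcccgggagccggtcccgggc
Cd244a: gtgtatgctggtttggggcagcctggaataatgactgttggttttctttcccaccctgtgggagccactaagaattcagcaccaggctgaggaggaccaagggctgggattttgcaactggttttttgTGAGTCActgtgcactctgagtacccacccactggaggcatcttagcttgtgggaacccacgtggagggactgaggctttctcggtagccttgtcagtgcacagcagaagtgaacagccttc
F11r: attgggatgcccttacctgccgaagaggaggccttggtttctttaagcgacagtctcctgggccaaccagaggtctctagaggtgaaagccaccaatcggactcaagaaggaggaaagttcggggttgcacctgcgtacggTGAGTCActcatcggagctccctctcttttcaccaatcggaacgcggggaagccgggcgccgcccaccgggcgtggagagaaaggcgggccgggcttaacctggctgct
Cd207: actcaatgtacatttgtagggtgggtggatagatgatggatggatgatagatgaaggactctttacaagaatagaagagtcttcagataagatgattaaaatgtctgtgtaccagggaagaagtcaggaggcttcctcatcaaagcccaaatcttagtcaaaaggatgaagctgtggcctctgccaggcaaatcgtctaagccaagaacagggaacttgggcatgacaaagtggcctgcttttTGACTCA
The matches begin 122 bases before the start site in Cd244a, 109 in F11r and 7 in Cd207, and none lies in the stretch of Igfbp4. These 4 genes do not show how common the motif was, since most genes with a more negative difference had no match. Windows of 300 bases (the 250 shown and the next 50) were searched on both strands for this motif, for CACGTG (E-box) and for TGACGTCA (the cyclic AMP response element) (partial overlaps allowed). TGANTCA stood in a window of 18 of 98 genes with a more negative difference (18.4%), 13 of 148 with a more positive one (8.78%), 401 of 7124 genes passing the level rule (5.63%) and 2425 of all 27025 genes (8.97%). The genes that fell in both tissues without a called difference had it in 84 of 1599 cases (5.25%). TGACGTCA stood at 8 of the 148 genes (5.41%) and none of the 98, against 3.69% of genes passing the level rule and 2.03% of all genes. CACGTG stood at 14.2% and 12.2% of the same sets, against 12.5% of genes passing the level rule and 8.09% of all genes. It also stands in the printed stretch of Cd244a, 64 bases before the start site, where it is not in capitals. A match is a description of these letters and not evidence of binding.

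Over all 13629 genes tested, the difference was called (adjusted p under 0.05) as more positive in thymus for 1.79% and as more negative for 1.39%. Among the 8637 genes with the required level these were 182 more positive and 126 more negative genes. Of these, 153 and 116 differed at least 2-fold, and 28 and 37 at least 4-fold. The median of the called differences was 1.33 on the positive side and -1.66 on the negative side, while the median over all 8637 genes was 0.129 and over all genes tested 0.003. Since the level rule can be met through the one fraction in which a gene is high, the counts were also made for the 7328 genes above 6 in all 4 untreated groups, of which 146 were more positive and 81 more negative.

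Arrays of one replicate number varied together across tissues within a fraction, and a fit with that number as a block within each fraction called 485 more positive and 260 more negative genes. It kept 181 of the 182 and 121 of the 126. With each of the 12 arrays left out in turn, 89 of the 182 and 70 of the 126 were called every time. The positive count was lowest without thymus CCR7- replicate 3 (98) and moved by over 1.5 times too without thymus CCR7- replicate 2 (107), thymus CCR7+ replicates 2 (104) and 3 (107) and spleen CCR7- replicate 3 (115), and it rose to 281 without spleen CCR7+ replicate 2. The negative count was 83, 82 and 81 without thymus CCR7- replicates 2 and 3 and thymus CCR7+ replicate 3. With quantile normalisation repeated, the split was 158 more positive and 162 more negative (49.4% positive, against 59.1% as deposited).

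**Figure D1:**
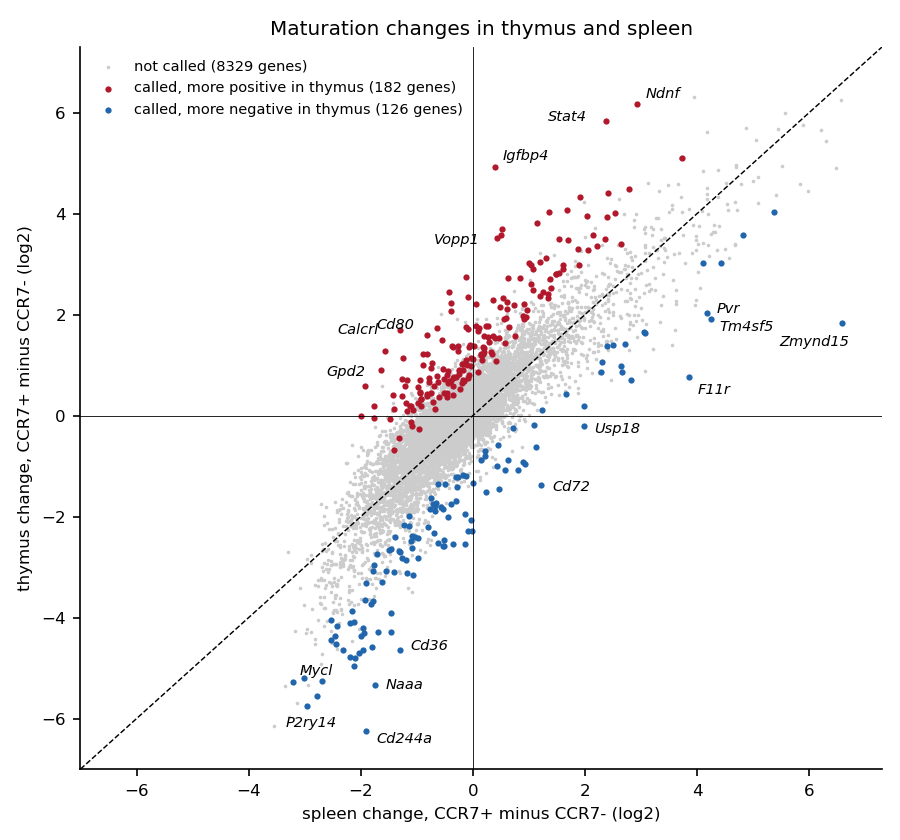
Thymus change against spleen change (CCR7+ minus CCR7-, log2) for 8637 genes, 1 point per gene. Red points are the 182 genes called more positive in thymus and blue points the 126 called more negative. Points on the dashed line changed by the same amount in both tissues, and Zmynd15 (far right) and Igfbp4 (upper centre) lie farthest from it.

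The called genes did not form one pattern. Genes that rose were common in both tissues (16.8% of genes tested in thymus and 12.3% in spleen), as were genes that fell (20.4% and 24.1%). Of the 182 more positive genes, 57 rose in both tissues and all 57 rose further in thymus. Another 71 rose with a call in thymus alone, 23 rose in thymus and fell in spleen, 29 fell with a call in spleen alone and 2 fell in both. Of the 126 more negative genes, 71 fell in both tissues, all further in thymus, 25 fell with a call in thymus alone, 17 rose in both, 7 rose with a call in spleen alone and 6 fell in thymus and rose in spleen. These parts come from the same arrays as the difference and divide it, so they are no further evidence for it.

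The same genes can be divided by the fraction in which the tissues differed. Of all genes tested, 8.16% differed between thymus and spleen in CCR7- cells and 12.2% in CCR7+ cells. Among the more positive genes, 108 were higher in thymus with a call in CCR7+ cells alone and 49 were lower in thymus with a call in CCR7- cells alone. For the more negative genes the corresponding counts were 43 (lower in thymic CCR7+ cells) and 49 (higher in thymic CCR7- cells). A difference of maturation thus included genes whose starting level differed between tissues as well as genes whose end level differed.

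**Figure D2:**
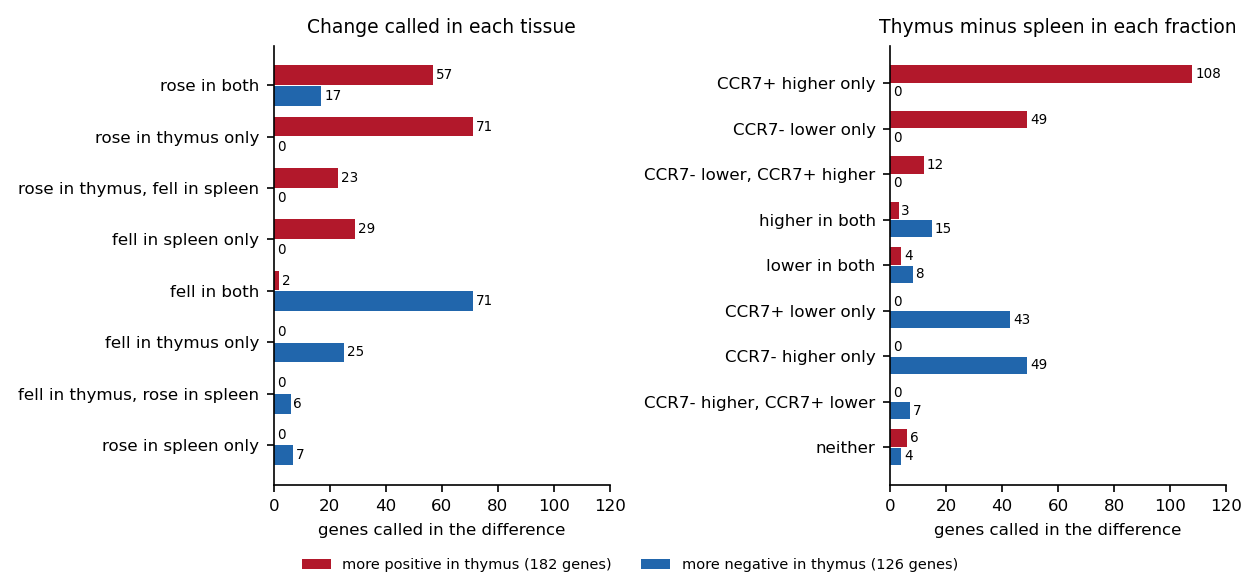
Number of genes called in the difference, by the change called in each tissue (left) and by the fraction in which thymus minus spleen was called (right). Red bars are the 182 genes more positive in thymus and blue bars the 126 more negative. The longest red bar on the right is the 108 genes higher in thymic CCR7+ cells, and the longest blue bar on the left is the 71 genes that fell in both tissues.

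Igfbp4 had the largest positive difference among the genes with the required level. It encodes a secreted protein that binds insulin-like growth factors. It read 6.32, 6.81 and 5.71 in the thymus CCR7- arrays and 10.75, 11.52 and 11.36 in the CCR7+ arrays. In spleen it read 5.75, 6.15 and 5.57 in CCR7- and 6.25, 6.24 and 6.15 in CCR7+ cells. The thymic CCR7+ arrays thus stood apart from the 9 others, which overlapped. The thymus change was 4.93, the spleen change 0.39 and the difference 4.54 (SE 0.36). Igfbp4 was picked from this contrast with the results known, so these values are a description without a test. After polyI:C the spleen CCR7+ arrays read 9.30, 9.06 and 9.43, between the untreated spleen and the thymus. The array carries 6 probe sets for Igfbp4, whose differences ran from -0.29 to 4.54, with 1.84 for their mean.

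Ndnf, a secreted glycoprotein first known from neurons, rose in both tissues from near background. It read 3.58, 4.34 and 4.33 in thymus CCR7- and 10.23, 10.46 and 10.07 in thymus CCR7+ cells, 3.93, 3.99 and 3.52 in spleen CCR7- and 7.29, 6.79 and 6.16 in spleen CCR7+ cells. The lowest thymic CCR7+ array lay above the highest splenic one, and the CCR7- arrays of the tissues overlapped. The difference was 3.24 (SE 0.37, adjusted p = 0.000205), or 1.89 over the mean of its probe sets, and polyI:C arrays read 9.49, 9.32 and 9.25. Il18bp, a soluble decoy that neutralises interleukin-18, rose by 2.52 in thymus and 1.39 in spleen, a difference of 1.13 (adjusted p = 0.00834).

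Of the ligands that T cells read, Cd80 (a ligand of CD28 and CTLA-4) moved in opposite directions. Its thymus arrays read 8.03, 8.36 and 8.04 in CCR7- and 9.54, 9.63 and 10.03 in CCR7+ cells, and its spleen arrays 7.71, 8.25 and 8.06 and 6.60, 7.52 and 7.44. It rose by 1.59 in thymus and fell in spleen (-0.82), with a difference of 2.41 (SE 0.33, adjusted p = 0.000855). After polyI:C the splenic arrays read 11.19, 11.03 and 11.37, above every untreated array. The fourth of its 4 probe sets, near background, had a difference of -0.35, and the other three were called more positive. Cd274, which encodes PD-L1, rose in both tissues, by 3.95 in thymus and 2.03 in spleen. Its difference of 1.92 (adjusted p = 0.0269) was called in 5 of the 12 fits that each left out 1 array (adjusted p = 0.0768 without thymus CCR7- replicate 3, the highest). The spleen CCR7+ arrays read 9.24, 10.89 and 10.69, and the call held without each of them.

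Pvr, a ligand of CD226 and TIGIT, went the other way. It read 7.93, 8.64 and 8.16 and 10.15, 10.38 and 10.29 in thymus, and 6.81, 7.17 and 6.94 and 11.16, 10.62 and 11.65 in spleen, so that it started higher and ended lower in thymus. The difference was -2.14 (SE 0.32, adjusted p = 0.00181). This rests on 1 of 7 probe sets: their mean gave -0.99 (adjusted p = 0.0755), and the probe set used when those with shared suffixes were left out gave -1.07 (adjusted p = 0.334). Of the 24 tested T cell ligands on the list, 2 had a more positive and 2 a more negative difference (4 more negative with the replicate block within each fraction), with a median of -0.07.

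Among receptors, Calcrl, the shared subunit of the receptors for adrenomedullin and calcitonin gene-related peptide, rose by 1.70 in thymus and fell in spleen (-1.30). Its arrays read 6.51, 5.52 and 5.20 and 7.93, 7.35 and 7.03 in thymus, and 7.09, 6.32 and 6.12 and 5.14, 5.59 and 4.91 in spleen. The CCR7- arrays of the tissues overlapped, and the CCR7+ arrays did not. The difference was 2.997 (SE 0.49, adjusted p = 0.00321), or 1.15 over the mean of its probe sets. Ramp3, a partner subunit of Calcrl, did not reach the required level in spleen and is not counted, but its group means were 4.69 and 8.60 in thymus, and 4.71 and 5.22 in spleen. Tlr13, a sensor of bacterial ribosomal RNA, did not change with a call in thymus (0.40) and fell in spleen (-1.43), a difference of 1.83 (adjusted p = 0.00308).

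Regulators of transcription were also among the genes that rose further in thymus. Stat4, a transcription factor activated downstream of interleukin-12 and type I interferon, read 3.07, 4.09 and 3.63 in thymus CCR7- and 8.95, 9.75 and 9.58 in thymus CCR7+ cells, 3.32, 4.51 and 3.49 in spleen CCR7- and 5.44, 6.79 and 6.24 in spleen CCR7+ cells. The CCR7- arrays were near background in both tissues, and the CCR7+ arrays did not overlap between tissues. The difference was 3.44 (SE 0.52, adjusted p = 0.00186). PolyI:C arrays read 10.80, 10.97 and 10.97, above the thymic ones. Crem, which encodes cyclic AMP-responsive repressors and activators, rose in thymus from 7.41, 7.47 and 7.53 to 9.62, 9.81 and 9.997 and did not change with a call in spleen (6.91, 7.25 and 7.23 and 6.89, 7.24 and 7.002, change -0.08). Its difference was 2.43 (SE 0.22, adjusted p = 2.98e-05), or 1.33 over the mean of its probe sets. Crem was named for its likeness to Igfbp4, so this p-value is no independent test.

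Nr4a2, an orphan nuclear receptor of the immediate-early kind, belongs to a list of 22 genes that respond to cell handling, and was the one gene of that list with a called difference. It rose in thymus by 2.75, with 10.42, 9.96 and 10.69 in CCR7+ arrays, but the spleen arrays spread widely (8.004, 7.62 and 9.89 in CCR7- and 7.87, 7.91 and 9.37 in CCR7+ cells), replicate 3 being highest in both. The difference of 2.87 (adjusted p = 0.0419) was called in 3 of 12 fits with 1 array left out (adjusted p = 0.102 without thymus CCR7+ replicate 3, the highest). The 6 probe sets of Nr4a2 had differences from -0.32 to 2.87, of which 3 were called. The part of handling in the difference of Nr4a2 was not tested.

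Enzymes of intermediary metabolism were also on the positive side. Gpd2, the mitochondrial glycerol-3-phosphate dehydrogenase, rose in thymus from 10.94, 10.9996 and 10.73 to 11.67, 11.83 and 11.89 and fell in spleen from 11.71, 11.62 and 11.50 to 9.26, 10.45 and 10.19. The highest splenic CCR7+ array lay below every other untreated array, and the lowest was replicate 1. The difference was 2.55 (SE 0.34, adjusted p = 0.000682). Of its 4 probe sets, 3 were called and the other had a difference of 0.46. Prps1, which makes the phosphoribosyl pyrophosphate used for nucleotides, rose by 1.14 in thymus and fell in spleen (-1.25), a difference of 2.39 (adjusted p = 0.00275). Ido1, which degrades tryptophan, read 5.52, 5.02 and 5.06 and 7.399, 7.50 and 7.396 in thymus, and 6.41, 6.20 and 6.52 and 6.03, 6.39 and 5.54 in spleen. It rose in thymus by 2.23 and did not change with a call in spleen (-0.39), a difference of 2.62 (SE 0.44, adjusted p = 0.00378). The aminotransferase Got1 had a difference of 2.51 (adjusted p = 0.0335) and was called in 5 of 12 fits with 1 array left out (adjusted p = 0.0935 without thymus CCR7- replicate 3, the highest). Its spleen CCR7+ arrays read 4.92, 7.02 and 6.82, and the call held without each of them.

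The other leading genes on the positive side had varied roles. Mt2, a metallothionein that binds zinc, rose by 3.81 in thymus and 1.14 in spleen. The interferon-inducible GTPases Gbp2b and Gbp2 rose by 4.03 and 5.11 in thymus, and by 1.37 and 3.72 in spleen. Both started lower in thymus, where CCR7- cells had -1.24 and -0.84 relative to spleen. For Gbp2b these CCR7- levels were near background, with group means of 3.95 in thymus and 5.20 in spleen. Arap2 and Psd3, regulators of Arf GTPases, rose by 3.59 and 2.44 in thymus, without a called change in spleen (0.51 and -0.43). Arap2, Psd3 and Vopp1 (difference 3.09, adjusted p = 0.000504) all started lower in thymic CCR7- cells. Arap2 and Psd3 had differences of 1.83 and 1.45 over the means of their probe sets. The serine protease inhibitor gene Serpinb6b rose from 10.15, 10.51 and 10.42 to 13.11, 13.04 and 13.09 in thymus, and from 11.59, 11.60 and 11.94 to 12.70, 12.46 and 12.50 in spleen, a difference of 1.88 (SE 0.19, adjusted p = 9.6e-05). Snhg16, a host gene of small nucleolar RNAs, rose in thymus by 3.70, but its second probe set had a difference of -0.43 and their mean lost the call (1.38, adjusted p = 0.152).

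**Figure D3:**
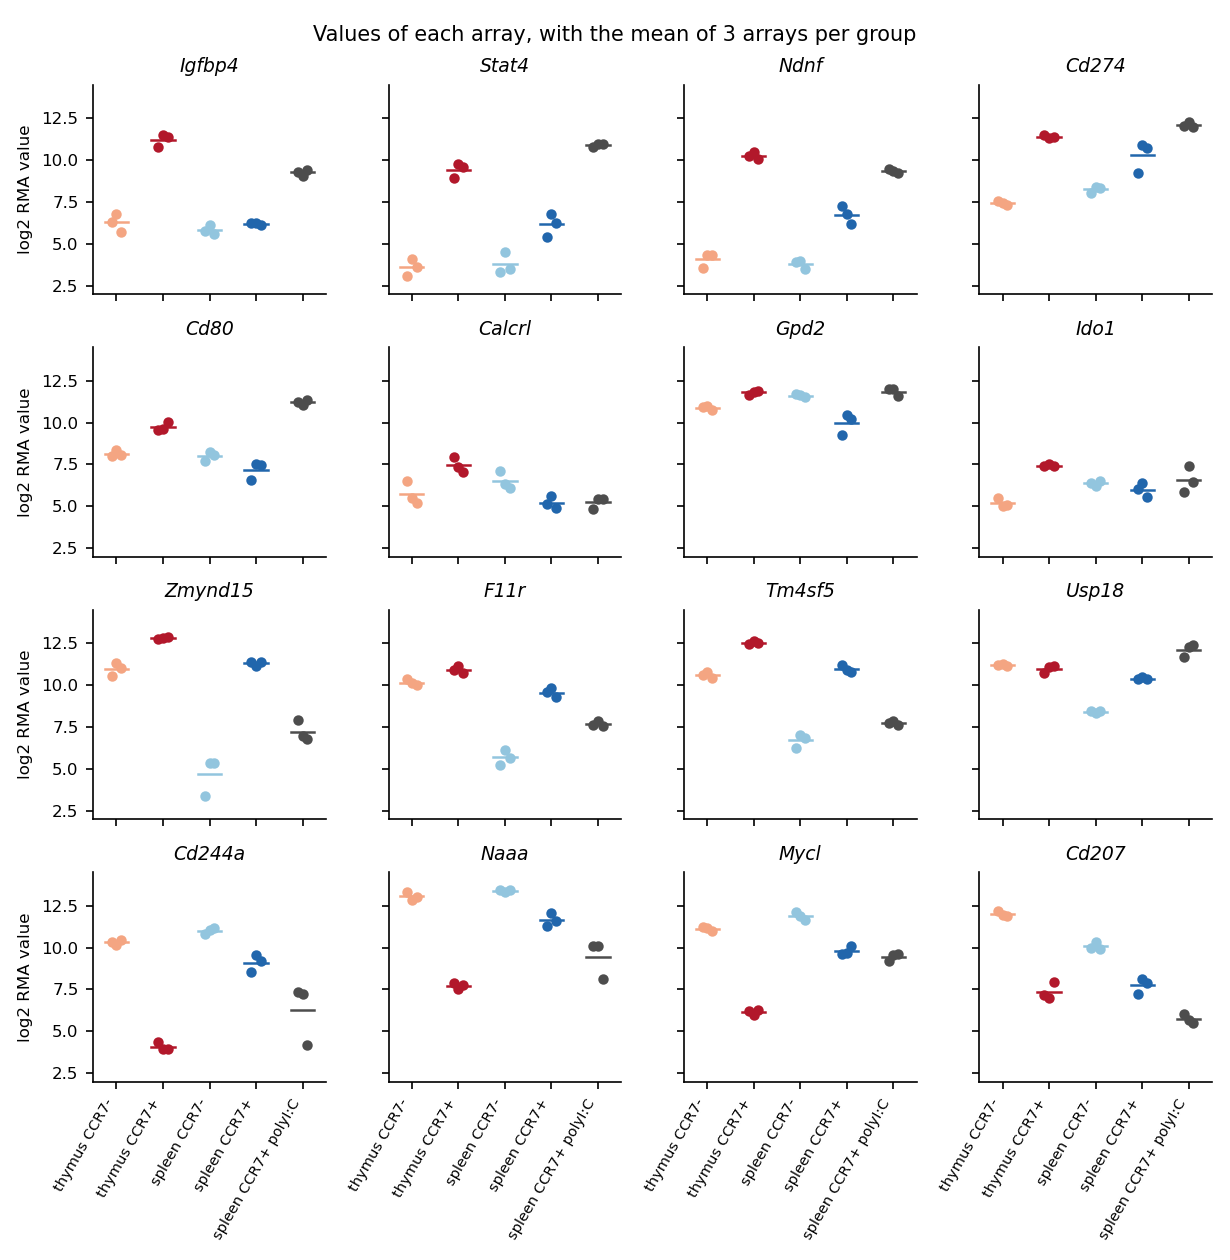
Log2 RMA values of 16 genes in each of the 15 arrays (points), with group means of 3 arrays (lines). The upper 8 panels are genes more positive in thymus, such as Igfbp4, where the thymic CCR7+ arrays stand above the other untreated arrays. In Zmynd15, F11r, Tm4sf5 and Usp18 the splenic CCR7- arrays stand lowest, and in Cd244a, Naaa and Mycl the thymic CCR7+ arrays stand lowest of the untreated ones.

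On the negative side, one group of genes was already high in the immature thymic cells. Zmynd15, a zinc finger protein known as a transcriptional repressor in sperm formation, read 10.53, 11.33 and 10.997 in thymus CCR7- and 12.71, 12.82 and 12.84 in thymus CCR7+ cells. In spleen it read 3.38, 5.34 and 5.37 in CCR7- and 11.36, 11.12 and 11.37 in CCR7+ cells. The splenic CCR7- arrays lay far below all others, and the CCR7+ arrays of the spleen overlapped the immature arrays of the thymus. The thymus change was 1.84, the spleen change 6.59 and the difference -4.74 (SE 0.61), given without a test since Zmynd15, like Igfbp4, was picked from this contrast. PolyI:C arrays read 7.92, 6.96 and 6.81, below the untreated spleen CCR7+ arrays.

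F11r, which encodes junctional adhesion molecule A, had the same shape. Its arrays read 10.35, 10.12 and 9.98 and 10.92, 11.11 and 10.70 in thymus, and 5.25, 6.13 and 5.66 and 9.58, 9.80 and 9.26 in spleen, and 7.62, 7.88 and 7.54 after polyI:C. It rose in both tissues, and thymic exceeded splenic CCR7- cells by 4.47. The difference was -3.10 (SE 0.30, adjusted p = 6.6e-05), or -1.52 over the mean of its 2 probe sets, since the second had a difference of 0.06. Tm4sf5, a membrane protein with 4 transmembrane passes, read 10.61, 10.78 and 10.41 and 12.43, 12.64 and 12.48 in thymus, and 6.26, 7.03 and 6.85 and 11.17, 10.90 and 10.80 in spleen, a difference of -2.32 (SE 0.26, adjusted p = 0.000196).

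By Pearson's r over the 12 untreated arrays, the genes whose pattern was most like that of Zmynd15 were Tm4sf5 (0.988), Sdc4 (0.983) and F11r (0.979), among 8406 genes compared. Sdc4 encodes syndecan-4, a proteoglycan of the cell surface, and its difference of -2.11 (adjusted p = 0.0341) was called in 3 of 12 fits with 1 array left out (adjusted p = 0.0887 without thymus CCR7- replicate 2, the highest). The genes most like Igfbp4 were Crem (0.980), Afap1 (0.973), an actin filament binding protein, and Zfp983 (0.967). Afap1 rose by 2.24 in thymus and 0.61 in spleen. Zfp983 rose in thymus (1.71) and not with a call in spleen (-0.08). The 12 arrays form 4 groups, so these r values mostly describe 4 group means. Genes chosen for likeness to Igfbp4 or Zmynd15 share their difference through that choice, so the p-values of such genes are no independent test.

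Genes of the type I interferon response were higher in immature thymic cells as well. Over the 27 tested genes of that list the mean level per array ran from 8.63 to 8.83 in thymus CCR7-, 8.45 to 8.64 in thymus CCR7+, 6.95 to 6.99 in spleen CCR7- and 7.20 to 7.45 in spleen CCR7+ cells, against 10.48 to 11.05 after polyI:C. Of the 27, 5 had a more negative and none a more positive difference, and 21 were below 0 (median -0.39). As the background for counts of sign here and below, 49.7% of all genes tested and 38.6% of those with the required level were below 0. Usp18, which removes ISG15 and dampens the interferon receptor, read 11.22, 11.26 and 11.11 and 10.74, 11.08 and 11.11 in thymus, and 8.47, 8.31 and 8.44 and 10.34, 10.47 and 10.35 in spleen. It did not change with a call in thymus (-0.21) and rose in spleen (1.98), a difference of -2.20 (SE 0.24, adjusted p = 0.000161). Ifit2 fell in both tissues and further in thymus (-2.62 against -1.08), but its call (adjusted p = 0.0314) held in 1 of 12 fits with 1 array left out (0.0793 without thymus CCR7+ replicate 3, the highest). The other three were Rsad2 (-1.23), Ifih1 (-0.96) and Xaf1 (-0.91). With single arrays left out, 1 to 3 genes of the list were called and Usp18 was called each time, and the replicate block within each fraction called 8.

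The second group on the negative side fell in both tissues and lost more in thymus. Cd244a, a receptor of the SLAM family that binds CD48, read 10.35, 10.17 and 10.48 in thymus CCR7- and 4.34, 3.96 and 3.97 in thymus CCR7+ cells, 10.78, 11.05 and 11.14 in spleen CCR7- and 8.52, 9.55 and 9.22 in spleen CCR7+ cells. The thymic CCR7+ arrays were near background and more than 4 units below every other untreated array. The difference was -4.34 (SE 0.84, adjusted p = 0.00976), or -2.29 over the mean of its 2 probe sets. PolyI:C arrays read 7.36, 7.24 and 4.21, of which replicate 3 was as low as the thymic ones.

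Mycl, a Myc family transcription factor active in DCs, read 11.22, 11.19 and 10.98 and 6.24, 5.99 and 6.28 in thymus, and 12.14, 11.91 and 11.66 and 9.58, 9.70 and 10.06 in spleen. The difference was -2.84 (SE 0.24, adjusted p = 2.47e-05), or -1.04 over the mean of its 3 probe sets. P2ry14, a receptor for UDP-glucose, fell by more than 5 units in thymus (-5.76) and less in spleen (-2.97), with 4.72, 4.34 and 4.37 in thymic and 7.73, 8.68 and 8.59 in splenic CCR7+ arrays. Entpd1, the ectonucleotidase CD39, fell as well (-3.87 and -2.16), and its call (difference -1.71, adjusted p = 0.0178) ended without thymus CCR7- replicate 2 or thymus CCR7+ replicate 2, at 0.0523 at most. Alox5ap, which activates 5-lipoxygenase in leukotriene synthesis, fell by 4.800 in thymus and by 2.10 in spleen, a difference of -2.70 (adjusted p = 0.00298).

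Others of this shape were Ctla2b, a protease inhibitor of the cathepsin propeptide type (difference -2.83), the membrane protein gene Tm6sf1 (-2.67) and the sulfotransferase gene Sult1a1 (-2.78). The call of Sult1a1 (adjusted p = 0.0156) ended without thymus CCR7- replicate 3, at 0.0521. Cxcl9, a chemokine that attracts CXCR3+ T cells, fell from 12.19, 12.31 and 12.03 to 8.02, 7.57 and 8.33 in thymus and from 12.86, 12.69 and 12.98 to 11.03, 10.96 and 10.65 in spleen. Its difference was -2.24 (SE 0.27, adjusted p = 0.000294), or -1.14 with its probe set of largest variance. H2-DMa, a chain of the molecule that loads peptide onto MHC class II, was the one of 16 class II presentation genes with a called difference (-1.40, adjusted p = 0.00317). It fell by 2.71 in thymus and by 1.31 in spleen.

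10 genes of this shape belonged to the list of XCR1+ DC identity genes. That list had 23 tested genes, of which 18 fell in thymus and 20 in spleen, and 10 had a more negative and none a more positive difference. The median was -1.18, and 17 of 23 were below 0. With single arrays left out, 8 to 12 genes of the list were called, and 12 without spleen CCR7+ replicate 1. The list was written with earlier results of these data known, so its direction is not independent evidence. Naaa, a lysosomal amidase, read 13.28, 12.86 and 13.04 and 7.90, 7.50 and 7.77 in thymus, and 13.44, 13.33 and 13.40 and 11.30, 12.07 and 11.58 in spleen. Its difference was -3.59 (SE 0.55, adjusted p = 0.00214), and its probe set of largest variance gave -3.02 without a call (adjusted p = 0.0607). Cd36, a scavenger receptor, read 6.44, 5.90 and 6.19 in thymic and 10.14, 10.58 and 9.98 in splenic CCR7+ arrays, which did not overlap, with a difference of -3.36 (SE 0.50, adjusted p = 0.00179).

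Wdfy4, which is needed for cross-presentation by these cells, fell by 4.29 in thymus and by 1.69 in spleen (difference -2.60, adjusted p = 0.00317, or -1.42 over the mean of its probe sets). Cd207, the lectin langerin, differed at the start instead. It read 12.16, 11.94 and 11.90 in thymic and 9.999, 10.35 and 9.91 in splenic CCR7- arrays, and 7.19, 6.97 and 7.94 and 7.26, 8.15 and 7.90 in CCR7+ arrays, which overlapped. Its difference was -2.32 (SE 0.37, adjusted p = 0.00264). Septin3 (-2.68) was likewise higher in thymic CCR7- cells (thymus minus spleen 1.16) and lower in thymic CCR7+ cells (-1.52). The remaining called genes of the list were Ppt1 (-2.78), Itgae (-2.58), Rab7b (-2.57), Gcsam (-2.09) and Cadm1 (-1.18). The call of Ppt1, a lysosomal thioesterase, held in 5 of 12 fits with 1 array left out (adjusted p = 0.0676 without thymus CCR7+ replicate 2, the highest), and the mean of its 5 probe sets gave -0.99 (adjusted p = 0.0683).

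Not all identity genes moved in this way. The transcription factors Batf3 (0.12) and Irf8 (0.35), the growth factor receptor Flt3 (0.55) and Cd8a (0.02) had differences near 0 that did not pass the test. Xcr1 itself had a difference of -2.60 (SE 0.79, adjusted p = 0.0997), with 4.85, 5.09 and 5.81 in thymic and 6.16, 8.999 and 8.93 in splenic CCR7+ arrays. The low splenic value is replicate 1, and without that array the difference was -3.53 and called (adjusted p = 0.000219), as it was with the replicate block within each fraction (adjusted p = 0.0227). Tlr3 had a difference of -2.56 that was not called (adjusted p = 0.0637). Itgax, which encodes the gated protein CD11c, fell by 3.12 in thymus and by 1.17 in spleen, and its call (difference -1.95, adjusted p = 0.0431) held in 1 of 12 fits with 1 array left out (0.105 without spleen CCR7- replicate 3, the highest). Kit, the marker of the immature gate, was at 8.22, 8.25 and 8.01 in thymic and 8.46, 9.15 and 8.23 in splenic CCR7+ arrays, which overlapped. Whether spleen CCR7+ samples held some immature cells was not tested.

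**Figure D4:**
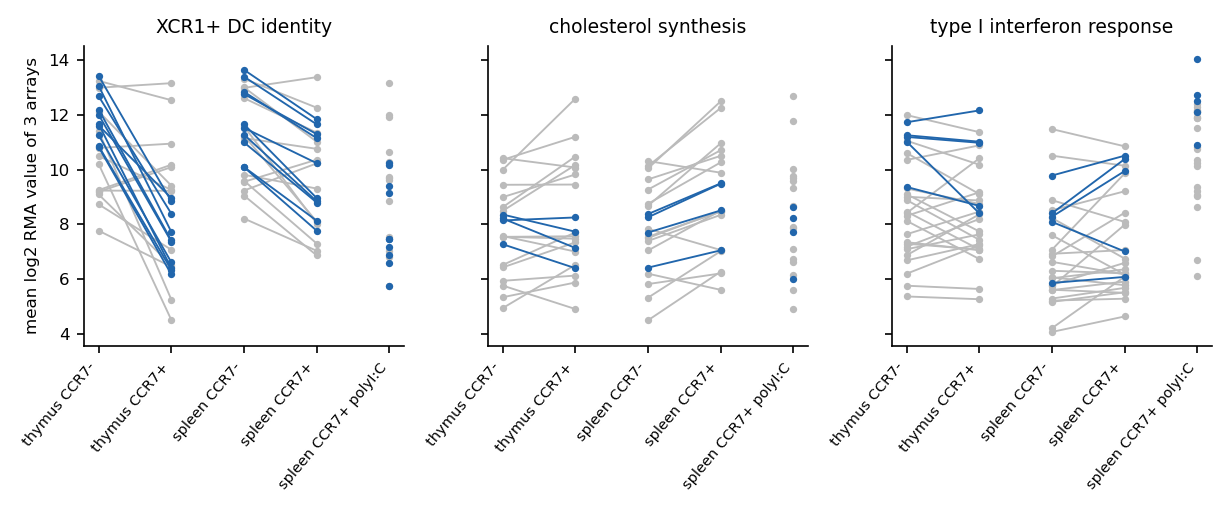
Mean log2 RMA values (3 arrays) of each gene of 3 lists in the 5 groups, with lines joining CCR7- and CCR7+ cells of a tissue. Blue marks genes called more negative in thymus (10 identity, 4 cholesterol and 5 interferon genes) and grey the others. The blue identity genes end lower in thymus, and the blue interferon genes start higher there.

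Genes of cholesterol synthesis and its control also differed towards spleen. Of 20 tested genes, 8 rose in thymus and 15 in spleen, and 4 had a more negative and none a more positive difference (median -0.61, 16 of 20 below 0), or 7 more negative with the replicate block within each fraction. Insig1, which holds the sterol-sensing machinery in the endoplasmic reticulum, fell in thymus from 8.71, 7.80 and 8.58 to 7.96, 7.69 and 7.55 and rose in spleen from 8.41, 8.11 and 8.61 to 9.68, 9.52 and 9.30. The arrays of thymus overlapped between fractions and those of spleen did not. The difference was -1.75 (SE 0.32, adjusted p = 0.00722). Stard4, a cholesterol carrier, fell by 1.08 in thymus and rose by 0.81 in spleen (difference -1.88, adjusted p = 0.0026), but its probe set of largest variance gave -0.99 without a call (adjusted p = 0.339). Fdps had a difference of -1.51 and Cyp51 of -1.12. Idi1, which rose most of the list in both tissues (2.60 and 2.45), had a difference of 0.15.

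Other lists had few or no calls. As the background for counts at an unadjusted p under 0.05 (limma), here and below, 1588 of the 8637 genes with the required level had one. Of 25 tested DC maturation genes, 23 rose in thymus and 22 in spleen, the median difference was 0.03, and Cd80, Serpinb6b and Serpinb9 (1.07) were the 3 with a called difference. The replicate block within each fraction also called 4 of them more negative. None of 28 cell cycle genes had a difference called by limma, 8 had an unadjusted p under 0.05, and 27 were below 0 (median -0.59). The replicate block within each fraction called 4 of them more negative, and up to 4 were called with 1 array left out. Their mean level ran from 9.25 to 9.47 in thymus CCR7- arrays and from 7.78 to 8.89 in spleen CCR7- arrays, and 27 fell in thymus and 25 in spleen. None of 21 glycolysis genes had a difference called by limma, and 3 had an unadjusted p under 0.05 (median 0.08). Of 17 interferon gamma response genes, 2 (Ido1 and Gbp2) were more positive and 1 (Cxcl9) more negative, with a median of 0.39. Of 10 tested SLAM family genes, 2 were more positive (Slamf1, 2.49, and Sh2d1a, 2.10) and 3 more negative (Cd244a, Cd84, -3.20, and Slamf9, -0.99), of which Cd244a and Slamf9 passed the level rule. The replicate block within each fraction called 4 that passed it, all more negative. P2ry14 and Entpd1 were the 2 called purine receptor and ectonucleotidase genes out of 13, both more negative. Stat4 and Il18bp were the 2 called genes of the interleukin-12 and STAT list, out of 17 tested, and the replicate block within each fraction called 4 more positive and 2 more negative.

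Among the further lists, some calls were in genes that missed the required level in one tissue. Of 16 tested chemokines, 2 were more negative: Cxcl9, and Ccl9 (-2.44), which averaged 5.64 in thymic and 8.01 in splenic CCR7+ cells. Of 18 Toll-like receptors and related genes, Tlr13 was more positive and Tlr1 (-1.77) more negative. Of 36 axon guidance and adhesion genes, 2 were more positive (Ndnf and Flrt3, 3.60) and 1 more negative (Cdh1, -1.86). Flrt3, a cell surface protein of axon guidance, averaged 8.55 in thymic and 4.58 in splenic CCR7+ cells. Of 24 uptake receptors and lectins, 3 were more negative (Cd36, Cd207 and Mgl2, -2.12). Of 7 calcitonin family receptor genes, Calcrl and Ramp3 were more positive. Of 22 tolerance genes, Ido1 was more positive and Entpd1 more negative, whereas the replicate block within each fraction called 4 more positive. None of 13 chemokine receptors had a difference called by limma, and 2 had an unadjusted p under 0.05. With that block, 4 chemokines, 2 class II presentation genes and 1 chemokine receptor that passed the level rule were more negative and of the Toll-like receptor genes 2 were more positive and 1 more negative.

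**Figure D5:**
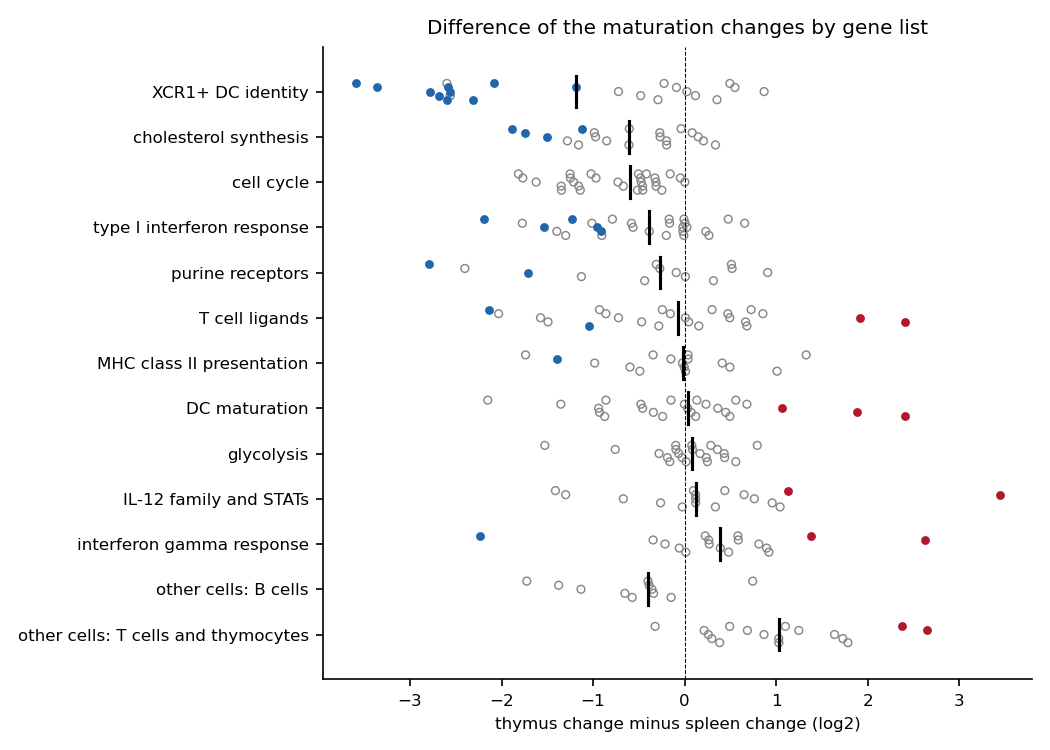
Difference of the maturation changes (thymus minus spleen, log2) for each tested gene of 13 lists. Filled red and blue points are genes called more positive and more negative, open points were not called, and bars are list medians. The identity list lies farthest to the left (median -1.18) and the list of T cells and thymocytes farthest to the right (median 1.03).

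6 genes stood for the 29 that changed in opposite directions in the tissues, a count that ran from 16 without thymus CCR7- replicate 3 or thymus CCR7+ replicate 2 to 46 without spleen CCR7+ replicate 2. Calcrl, Gpd2 and Prps1 are described above. Itm2a, a membrane protein gene also active in thymocytes, rose in thymus (8.43, 8.54 and 8.22 to 9.89, 10.62 and 8.53) and fell in spleen (9.67, 10.31 and 10.39 to 8.61, 8.49 and 8.59), a difference of 2.84 (SE 0.54, adjusted p = 0.00882). Cd72, an inhibitory receptor of B cells, fell in thymus (-1.37) and rose in spleen (1.23), a difference of -2.60 (SE 0.43, adjusted p = 0.00321). Gch1, the first enzyme of tetrahydrobiopterin synthesis, fell in thymus from 8.07, 7.73 and 7.91 to 6.90, 7.07 and 6.89 and rose in spleen from 6.20, 6.05 and 6.34 to 7.50, 7.14 and 6.72, a difference of -1.88 (SE 0.38, adjusted p = 0.0124). The second probe set of Gch1 had a spleen change of 0.10 and a difference of -1.29 that was not called.

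Markers of other cells moved with some of these results. Of 17 tested genes of T cells and thymocytes, 11 rose in thymus and 2 in spleen, 16 had a difference above 0 (median 1.03), and 3 passed the level rule. The mean level per array over the 18 genes with a probe set ran from 6.41 to 7.56 in thymus CCR7+, from 5.36 to 6.01 in thymus CCR7-, and from 4.94 to 5.32 in both spleen groups. Rag1 averaged 6.27 and 9.12 in thymus, and 2.63 and 2.83 in spleen, whereas Cd3e averaged 4.85 to 5.26 and Cd4 5.43 to 5.93 over the 4 groups. Satb1, a chromatin organiser on that list, rose in thymus by 1.73 and had a difference of 2.38 (adjusted p = 0.0102). In both Satb1 and Itm2a, thymus CCR7+ replicate 2 was highest and replicate 3 lowest of its group (10.62, 11.21 and 9.87 and 9.89, 10.62 and 8.53). The part of thymocyte RNA in these genes was not tested. Fewer cells of a type and less RNA per cell cannot be told apart in such samples.

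Of 11 B cell genes, 3 rose in thymus and 7 in spleen, and none had a difference called by limma (median -0.40, 2 at an unadjusted p under 0.05), while the replicate block within each fraction called 1 more negative. Over the 12 with a probe set the mean level was highest in spleen CCR7+ arrays (6.83 to 7.89), against 5.68 to 6.90 in thymus CCR7+ arrays. Their part in the rise of Cd72 in spleen was not tested. Epcam, an adhesion molecule on the thymic epithelium list, read 10.38, 10.52 and 10.43 and 7.86, 8.58 and 8.06 in thymus, and 6.31, 6.77 and 6.15 and 6.87, 6.68 and 5.62 in spleen, a difference of -2.26 (adjusted p = 0.00755). The second probe set of Epcam had a difference of -0.74 that was not called. Of the 11 tested genes of that list, 4 rose in thymus and 2 in spleen, and 1 (Epcam) fell in thymus. Those that rose in thymus were Krt8 (5.80 to 7.24), Ccl25 (5.52 to 6.76), Krt18 (5.61 to 6.26) and Ly75 (9.19 to 10.09), of which Ly75 also rose in spleen. Ly75 encodes DEC-205, a receptor that DCs carry too, so it does not mark epithelium alone. Ccl25 had a more positive difference (1.41, adjusted p = 0.0358) but missed the required level. Foxn1 averaged 4.77 and 4.66 in thymus, Aire 5.10 and 5.45, and Krt5 5.48 and 5.82. Over the 14 genes with a probe set the mean level per array ran from 5.46 to 5.69 in thymus CCR7- and from 5.70 to 5.81 in thymus CCR7+ cells, and from 4.83 to 5.33 in the spleen groups. The part of epithelial RNA in these results was not tested. Siglech, a receptor of plasmacytoid DCs, had a difference of -1.04 (adjusted p = 0.0266) that held in 5 of 12 fits with 1 array left out (0.0744 without thymus CCR7+ replicate 3, the highest). The 11 tested genes of that list had a median of -0.13. Of 17 macrophage and monocyte genes, 7 rose in thymus and 2 in spleen, and 2 fell in thymus and 4 in spleen. Of the 17, 12 had a difference above 0 (median 0.53). The background was 5306 of the 8637 genes with the required level and 6856 of the 13629 genes tested. None of the 17 was called by limma, 5 had an unadjusted p under 0.05, and the replicate block within each fraction called 2 more positive. Their mean level per array ran from 5.88 to 6.01 in thymus CCR7-, 5.84 to 6.48 in thymus CCR7+, 6.73 to 7.41 in spleen CCR7- and 6.33 to 7.26 in spleen CCR7+ cells. Of 10 NK cell genes, 8 had a difference below 0 (median -0.30) and 2 were more negative, Cd244a and Klrb1b (-3.83), which averaged 9.59 in thymic and 4.85 in splenic CCR7- cells. The list of SIRPA+ DCs (10 tested genes, median -0.03) had Mgl2 as its called gene. The part of such cells in these results was not tested. Lists of neutrophils (8 tested genes) and red cell precursors (7) had none by limma, and 0 at an unadjusted p under 0.05.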

How the data were processed

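RNA of sorted cells was amplified in 2 rounds from 40 ng and hybridised to Affymetrix mouse genome expression arrays, per the labels' protocols. The deposited values are log2 values that the authors made with RMA and affy, per the submitters' processing notes, which give no versions and do not say which arrays were normalised together. RMA gives no detection calls, changes near background are compressed, and the number of arrays limits the precision. Median values per array ran from 4.86 to 5.00. Of 45101 probe sets, 34958 had 1 symbol, 932 several and 9211 none, and each gene was represented by the probe set with the highest mean over 15 arrays.

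Genes above the 40th percentile of values (4.39) in at least 3 arrays were tested with limma 3.58.1 (R 4.3.3), with 5 group means over all 15 arrays, moderated variances (10 residual and 4.01 prior degrees of freedom) and Benjamini-Hochberg adjustment over 13629 genes. The fit was tested on simulated data with independent noise in each array. That test does not cover the correlation between same-numbered arrays given below. Named genes were called, at least 2-fold apart, and the 15 largest in each direction, 6 with opposite changes, up to 2 per direction and list, the sort markers, both genes picked for this contrast and their 3 nearest patterns. Of 609 entries in 30 lists, 562 had a probe set. The members, lists and rules were chosen with earlier results of these data known. The replicate numbers come from the titles. Deviations of same-numbered arrays correlated between tissues within a fraction (0.52 to 0.57 in CCR7- and 0.42 to 0.59 in CCR7+ cells), but between fractions of a tissue they ran from -0.12 to 0.16. A block within each fraction was therefore added after this was seen. Alternatives were other filters, probe set rules, scalings, variance settings, levels, blocks, and arrays left out.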

Additional observations from a re-analysis of the deposited data

Results flagged for a closer look

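The maturation change differed between thymus and spleen, by the test of the difference itself, for 182 genes that were more positive and 126 that were more negative in thymus, of which 29 changed in opposite directions. These are the counts and the named genes a reader may wish to look at again. Values in brackets are log2 differences (thymus change minus spleen change).

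The 10 largest positive differences were those of Igfbp4 (4.54), Stat4 (3.44), Ndnf (3.24), Snhg16 (3.18), Vopp1 (3.09), Arap2 (3.07), Calcrl (2.997), Psd3 (2.87), Nr4a2 (2.87) and Itm2a (2.84). Further positive differences were those of Mt2 (2.67), Gbp2b (2.67), Ido1 (2.62), Gpd2 (2.55), Got1 (2.51), Crem (2.43), Cd80 (2.41), Prps1 (2.39), Satb1 (2.38) and Cd274 (1.92). The remaining positive differences were those of Serpinb6b (1.88), Tlr13 (1.83), Zfp983 (1.79), Afap1 (1.63), Gbp2 (1.38) and Il18bp (1.13). 

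The 10 largest negative differences were those of Zmynd15 (-4.74), Cd244a (-4.34), Naaa (-3.59), Cd36 (-3.36), F11r (-3.10), Mycl (-2.84), Ctla2b (-2.83), P2ry14 (-2.79), Ppt1 (-2.78) and Sult1a1 (-2.78). Next in size were Alox5ap (-2.70), Septin3 (-2.68), Tm6sf1 (-2.67), Cd72 (-2.60), Wdfy4 (-2.60), Tm4sf5 (-2.32), Cd207 (-2.32), Epcam (-2.26), Cxcl9 (-2.24), Usp18 (-2.20), Pvr (-2.14) and Sdc4 (-2.11). Smaller negative differences were those of Itgax (-1.95), Stard4 (-1.88), Gch1 (-1.88), Insig1 (-1.75), Entpd1 (-1.71), Ifit2 (-1.54), H2-DMa (-1.40), Vsir (-1.05) and Siglech (-1.04). 

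Igfbp4 and Zmynd15 were picked from this contrast and are left out of the following count. The other 55 genes were named largely by the size of this same difference, so their counts are no independent support. Of these 55, 44 were called in all 12 fits with 1 array left out. Over all called genes it was 89 of the 182 more positive and 70 of the 126 more negative. The remaining 11 of the 55 were Nr4a2, Got1, Ppt1, Sult1a1, Ifit2, Cd274, Vsir, Entpd1, Siglech, Itgax and Sdc4, whose calls held in 1 to 11 of those fits. The call of Vsir, an inhibitory ligand of T cells, held in 1 of them and reached an adjusted p of 0.105 without thymus CCR7+ replicate 3 (limma, adjusted over all genes tested). With the replicate block within each fraction it was 0.0532. The second probe set of Vsir had a difference of -0.44 that was not called. No explanation was tested for any of these differences.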

How the results depend on the processing

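The counts of 182 more positive, 126 more negative and 29 opposite genes stayed within 1.5 times of these values under the alternatives run, apart from those given next. Array weights gave 211 more negative genes, and the probe set of largest variance 19 opposite genes. The test against a log2 difference of 1 called 6, 5 and 0 genes. The replicate block within each fraction, added after the pairing was seen, called 485, 260 and 64, whereas the replicate number of the titles as one block over both fractions called 193, 143 and 29. With single arrays left out the counts ran from 98 to 281, from 81 to 160 and from 16 to 46. Of the called genes, 60 positive and 53 negative ones were called in all 12 of these fits and all 12 other settings tried, leaving aside the test against 1 and the level rules. For the 55 named genes with a call other than Igfbp4 and Zmynd15, 1221 of 1370 alternatives kept direction and call, 149 lost the call and none reversed it. These 55 were named largely by the size of this same difference, so that share does not stand for all called genes. Averaging the probe sets of a gene lowered many sizes, and the cause was not tested. Medians over the genes passing the level rule were 0.044 with quantile normalisation repeated and 0.168 with each array centred on its median, and ran from 0.054 to 0.184 with single arrays left out. Signal near background limits genes such as Ndnf, Stat4 and Cd244a, whose low groups lie under 5. No correction for the amplification of small RNA amounts was made.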
